A study of Mus musculus with 2 samples.

Results

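Efferocytosis, the uptake of dying cells, was examined through 7 genes: the receptors Mertk and Axl, the bridging genes Pros1 and Mfge8, the integrin subunits Itgav and Itgb5, and the engulfment adaptor Elmo1. These 7 genes were taken by name from the 16819 genes measured. The cells were CD45+ DAPI− cells, living cells that carry the leukocyte antigen CD45, sorted from dorsal root ganglia (DRGs) of 3 naive male wild-type BALB/cAnNRj mice aged 7 wk or older. The mice had no transgene and received no treatment. The cells of 3 female mice of the same strain, 1073 cells that carried other hashtags (barcoded antibodies that mark the mouse a cell came from) in the same 10x Genomics 3′ lane, served as a second set.

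In efferocytosis, a macrophage recognises phosphatidylserine on the surface of a dying cell. The TAM receptor tyrosine kinases Mertk and Axl bind it through soluble bridges. Protein S, the product of Pros1, bridges to Mertk, and Gas6 bridges to Mertk and Axl. Mfge8 is bridged to the integrin αvβ5, whose subunits are encoded by Itgav and Itgb5. Engulfment then runs through Elmo1, which with Dock1 activates Rac1. Resident macrophages of many tissues use Mertk under steady conditions, whereas Axl is known as an inflammation- and interferon-regulated receptor.

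Macrophages were defined as cells with at least 0.5% of their unique molecular identifiers (UMIs, each counted as 1 transcript molecule) in the complement genes C1qa, C1qb and C1qc. The gate held 1484 cells (183, 519 and 782 in male mice 1, 2 and 3) and left 1184 others, and 14 cells lay between 0.25% and 0.5% and 19 between 0.5% and 0.75%. Macrophages were then split by UMIs of Fcrls and Ccr2, the genes that mark the CD163+ and CD163− subsets of DRG macrophages, into 678 Fcrls-only, 583 double-positive, 156 Ccr2-only and 67 cells with neither. A class set by UMIs depends on depth as well as on expression: the median depth was 8521.5 UMIs in Fcrls-only, 9080.0 in double-positive, 7999.5 in Ccr2-only and 7058.0 in neither cells. Below the gate, clusters were named from their markers as neutrophil-like (564 cells), T or NK cell-like (135), B cell-like (134), monocyte-like (107) and dendritic cell (DC)-like (97), and 147 cells stayed unassigned. Depth over all these cells ran from 549 to 37058 UMIs with a median of 8283.5. All 7 macrophage markers, among them the C1q genes that set the gate, had a UMI in every macrophage class and in every other named class. Their mean share of UMIs was 1.61 to 2.03% in the macrophage classes and 0.021 to 0.0675% in the others. In the Fcrls-only, double-positive and Ccr2-only classes, neuronal markers were at no more than 0.00808% and glial markers at no more than 0.00576% of UMIs in any mouse.

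Each member has 1 identifier in the data. On the GRCm38 build, Mertk (ENSMUSG00000014361) lies on the plus strand of chr2:128698956-128802894 and Itgav (ENSMUSG00000027087) on the plus strand of chr2:83724397-83806916. Axl (ENSMUSG00000002602) lies on the minus strand of chr7:25757273-25788705 and Mfge8 (ENSMUSG00000030605) on the minus strand of chr7:79133768-79149060. Elmo1 (ENSMUSG00000041112) lies on the plus strand of chr13:20090596-20608353. Itgb5 (ENSMUSG00000022817) and Pros1 (ENSMUSG00000022912) lie on the plus strand of chr16:33829665-33949338 and chr16:62854307-62929346. Annotated noncoding genes overlap Mertk, Itgav and Elmo1, and none overlaps the other members.

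The promoters of Mertk, Axl and Itgb5 are shown because these members had the largest differences between macrophages and other cells. Each is the 250 bases before the RefSeq start on GRCm38.p6, a C57BL/6J reference whereas these mice were BALB/c, 5′ to 3′ on the gene's strand. Capitals mark the GC box GGGCGG in either orientation (CCGCCC), which 32.7% of 32851 promoters of this length hold.
Mertk promoter, chr2:128698665-128698914, plus strand: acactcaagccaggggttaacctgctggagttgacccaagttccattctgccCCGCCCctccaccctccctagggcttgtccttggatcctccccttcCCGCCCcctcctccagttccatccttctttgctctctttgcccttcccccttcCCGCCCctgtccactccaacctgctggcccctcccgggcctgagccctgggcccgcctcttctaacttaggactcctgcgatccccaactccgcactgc
Axl promoter, chr7:25788734-25788983, minus strand: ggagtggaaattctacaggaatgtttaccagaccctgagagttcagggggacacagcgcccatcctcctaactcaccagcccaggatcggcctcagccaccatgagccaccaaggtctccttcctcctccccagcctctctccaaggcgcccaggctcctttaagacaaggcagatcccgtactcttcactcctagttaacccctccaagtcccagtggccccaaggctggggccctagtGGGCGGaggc
Itgb5 promoter, chr16:33829415-33829664, plus strand: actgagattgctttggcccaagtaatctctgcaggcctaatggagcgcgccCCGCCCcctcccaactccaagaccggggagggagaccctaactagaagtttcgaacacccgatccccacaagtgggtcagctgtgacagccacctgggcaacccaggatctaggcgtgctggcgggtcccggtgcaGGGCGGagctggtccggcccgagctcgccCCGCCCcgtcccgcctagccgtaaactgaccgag
The Mertk promoter held 3 matches, the Axl promoter 1 and the Itgb5 promoter 3. A GC box was also matched before a start of Pros1, Mfge8 and Elmo1, so that 6 of the 7 members held at least 1, and no match was found in the window of Itgav. These are matches of letters, and binding was not measured.

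Of the classes named here, those of macrophages had the highest mean levels of Mertk, Itgb5, Axl and Pros1, whereas the levels of Mfge8, Itgav and Elmo1 in macrophages overlapped those in T or NK cell-like cells. As a measure of background, Axl and Itgb5, the members with the highest levels in macrophages, had 1 and 4 UMIs in T or NK cell-like cells, where Mfge8 had 12, Itgav 20 and Elmo1 35. In B cell-like cells, Axl had none and Itgb5 2, against 6 of Mfge8, 5 of Itgav and 23 of Elmo1. In macrophages, Axl and Itgb5 were at 150 and 238 CPM (defined below), and Mfge8 and Itgav at 21.2 and 25.6 CPM. Raw counts of the former are thus not a like measure for the latter, and the part of background in these counts was not tested. Levels are given as UMIs of the gene per 1000000 UMIs of the class in each mouse (CPM), as mean ± SD over 3 mice, and since clusters were built from the same cells the levels in clusters are a description with no test. Only Mfge8 of the 7 members was among the 2000 variable genes used to cluster.

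**Figure D1:**
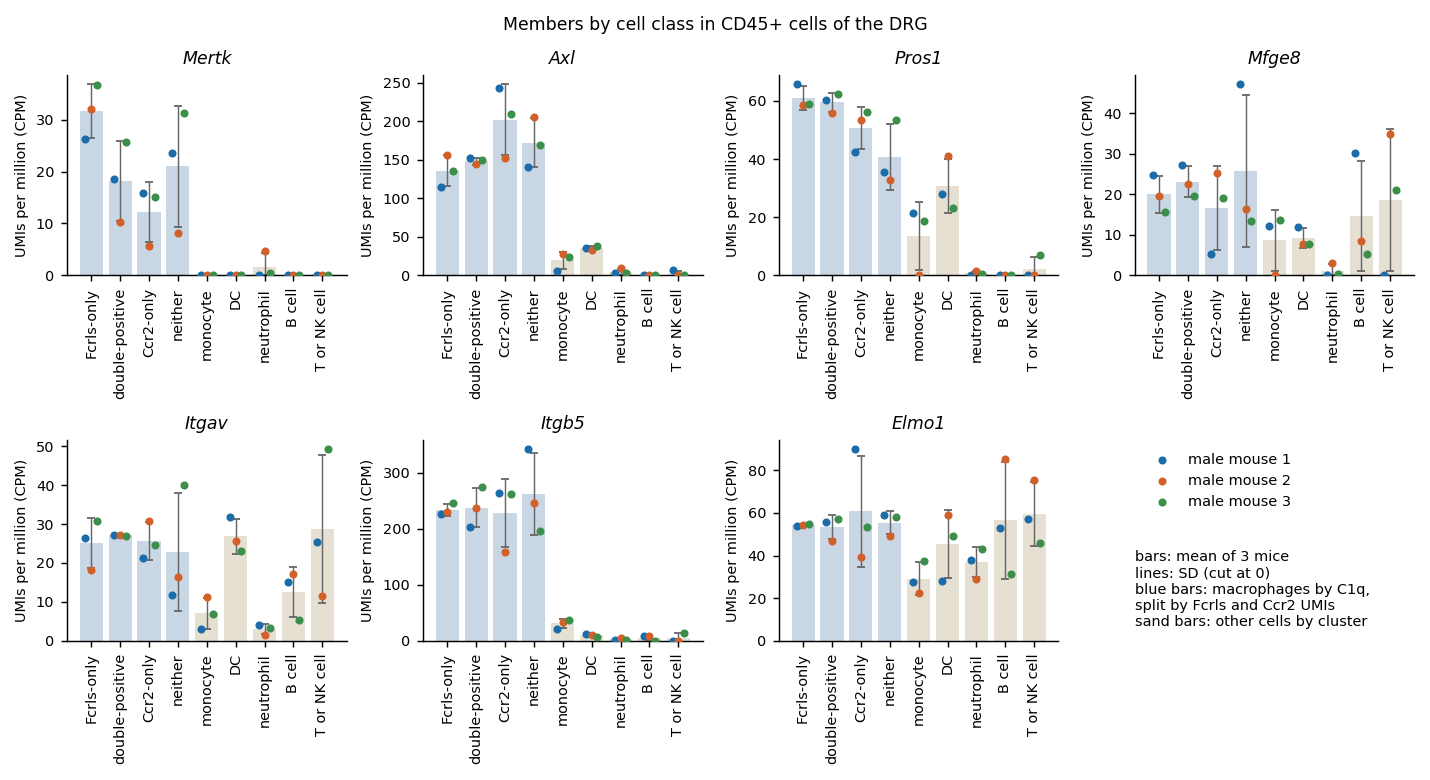
Level of each member (CPM, vertical axis) in the 4 macrophage classes (blue bars) and 5 marker-named clusters of other cells (sand bars); bars are means, lines SD and points the 3 male mice. Mertk, Axl and Itgb5 stand high in the macrophage classes and low elsewhere, and Elmo1 is present in every class shown.

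Among the receptors, Mertk was at 26.3, 32.1 and 36.6 CPM in Fcrls-only macrophages of mice 1, 2 and 3. In double-positive macrophages it was at 18.6, 10.2 and 25.7 CPM, and in Ccr2-only macrophages at 15.9, 5.63 and 15.1 CPM. Macrophages with neither UMI ranged from 8.22 to 31.2 CPM on 10 UMIs in all. The 4 classes were therefore ordered Fcrls-only, neither, double-positive and Ccr2-only, with ranges that overlapped between neighbours. Clusters below the gate are those of Louvain resolution 0.5. At resolution 0.8 some of these cells changed names, and the monocyte-like cells then held 2.09 CPM of Mertk. At resolution 0.5 no Mertk UMI was found in monocyte-like, DC-like, B cell-like or T or NK cell-like cells, and 4 UMIs were found in neutrophil-like cells. A count of 0 in 107 monocyte-like cells allows a share of cells with a UMI of up to 2.8%, and in 97 DC-like cells up to 3.09%. In macrophages, 278 of 1484 cells (18.7%, exact binomial 95% interval 16.8 to 20.8%) carried a Mertk UMI, against 3 of 564 neutrophil-like cells (0.532%, 0.11 to 1.55%), at median depths of 8621.5 and 6327.5 UMIs. After each cell was thinned to 2000 UMIs, which left out 30 macrophages and 34 neutrophil-like cells with fewer, the shares were 4.95% and 0.189%. Intervals and limits cover counting error only.

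Axl, the other TAM receptor among the members, was at 147, 153 and 150 CPM in macrophages of the 3 mice, a spread of 2.97 CPM. Its order among macrophage classes was the opposite of that of Mertk at the ends: 202 ± 46.2 CPM in Ccr2-only, 172 ± 32 in neither, 148 ± 4.29 in double-positive and 136 ± 20.4 in Fcrls-only macrophages, with ranges that overlapped between neighbours. Outside the macrophages, DC-like cells held 35.9, 33.5 and 38.6 CPM and monocyte-like cells 6.11, 27.9 and 23.8 CPM. These ranges lay apart from each other and from those of every macrophage class. At resolution 0.8 the names covered other cells, and the means were 4.08 CPM in DC-like and 45.2 CPM in monocyte-like cells. The 107 monocyte-like cells formed the same cluster there, at 19.2 CPM over all mice. A cluster led by Lyz1, Cd209a and Tnip3 also took the monocyte name, and 51 cells led by Xcr1 the DC name. Neutrophil-like cells were at 4.71 ± 3.88 CPM, T or NK cell-like cells had 1 UMI, and B cell-like cells had none. A UMI of Axl was present in 69.1% of macrophages (66.7 to 71.5%) and, at 2000 UMIs, in 27.2% (25 to 29.6%). At that depth it was present in 38.8% (31 to 47%) of Ccr2-only, 25.9% (22.6 to 29.4%) of Fcrls-only and 5.15% (1.69 to 11.6%) of DC-like cells, and 0.755% (0.206 to 1.92%) of neutrophil-like cells.

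Of the bridging genes, Pros1, which encodes protein S, was at 65.8, 58.5 and 58.8 CPM in Fcrls-only, 60.2, 55.8 and 62.5 in double-positive and 42.3, 53.5 and 56.2 in Ccr2-only cells. Cells with neither UMI held 35.4, 32.9 and 53.5 CPM on 19 UMIs. The ranges of Fcrls-only and Ccr2-only cells lay apart, and neighbours in the order overlapped. DC-like cells held 27.9, 41.2 and 23.1 CPM. Monocyte-like cells held 21.4, 0 and 18.7 CPM, and neutrophil-like and T or NK cell-like cells had 2 UMIs each. With the changed names of resolution 0.8, the means were 7.43 CPM in DC-like and 31.9 CPM in monocyte-like cells. A cluster of 11 macrophages led by Cd209g, Cd209f, Ednrb and Fcna had 28 Pros1 UMIs, 207 CPM with an exact Poisson interval of 138 to 299, against 58 CPM (52 to 64.6) in the largest macrophage cluster. The same 11 cells had 1 UMI of Axl, 7.4 CPM (0.187 to 41.2), and 8 UMIs of Itgb5, 59.2 CPM (25.6 to 117). Both values lay below the 135 CPM of Axl and 246 CPM of Itgb5 in the largest macrophage cluster. The UMIs of these clusters were pooled over mice, so the Poisson intervals cover counting error and not the spread between mice.

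Mfge8, the bridge to αvβ5, was found in most classes. It was at 24.8, 21.1 and 17.7 CPM in macrophages, 18.6 ± 17.5 CPM in T or NK cell-like cells and 14.7 ± 13.6 CPM in B cell-like cells, on 12 and 6 UMIs. The range of every class overlapped that of the next in the order, and neutrophil-like cells were lowest at 1.14 ± 1.68 CPM. All cells below the gate held 95 Mfge8 UMIs, of which monocyte-like, DC-like and neutrophil-like cells held 12, 11 and 3. The UMIs outside the named classes lay in the 147 unassigned cells, for which no level was taken. Mfge8 can thus be as high in some of those cells as in macrophages. With the changed names of resolution 0.8, monocyte-like cells went from 8.62 to 20.2 CPM and DC-like cells from 9.13 to 1.79 CPM.

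The integrin subunits of αvβ5 had unlike distributions. Itgb5 was at 227, 227 and 259 CPM in macrophages and differed little between their classes, from 228 ± 61.3 CPM in Ccr2-only to 262 ± 74 CPM in neither cells. Monocyte-like cells followed at 21.4, 33.5 and 37.5 CPM and DC-like cells at 12, 10.3 and 6.17 CPM, and these ranges lay apart. Itgb5 was found in 80.5% of macrophages (78.3 to 82.4%) and 1.6% of neutrophil-like cells (0.732 to 3.01%), and at 2000 UMIs in 37.6% and 0.566%. Itgav, in contrast, was at 25.4, 22.7 and 28.8 CPM in macrophages, 31.9, 25.7 and 23.1 CPM in DC-like cells and 25.5, 11.6 and 49.2 CPM in T or NK cell-like cells, ranges that overlapped. It was at 7.01 ± 4.06 CPM in monocyte-like cells, or 13.2 CPM at resolution 0.8, and 2.94 ± 1.32 CPM in neutrophil-like cells.

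Elmo1, the engulfment adaptor, was the least restricted member. It ran from 29.1 ± 7.68 CPM in monocyte-like cells to 60.9 ± 26.1 CPM in Ccr2-only macrophages, and each class overlapped the next in the order. The ranges of B cell-like cells (52.9, 85.6 and 31.2 CPM) and T or NK cell-like cells (57.4, 75.4 and 45.7 CPM) overlapped that of macrophages (59.2, 50 and 56 CPM). They were wider and rested on 23 and 35 UMIs. At 2000 UMIs, 10% of macrophages (8.54 to 11.7%) and 9.43% of neutrophil-like cells (7.08 to 12.2%) had a UMI.

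Cell by cell, a macrophage carried UMIs of 2.75 ± 0.276 of the 7 members and a monocyte-like cell of 0.886 ± 0.226. At 2000 UMIs the means were 1 ± 0.0772 and 0.211 ± 0.0591. Of the macrophages, 2.9% carried no member at full depth, against 41.1% of monocyte-like and 69% of neutrophil-like cells. Over the mean levels of the 9 classes, which share 1 lane and include 4 classes of macrophages, Axl went with Pros1 (Pearson r = 0.96) and Itgb5 (r = 0.95) and Mertk with Itgb5 (r = 0.92), and Elmo1 least with Pros1 (r = 0.28).

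The first tested question was whether the members differed between macrophages and all other sorted cells. All 7 were higher in macrophages, and the ranges of the 3 mice lay apart for each. The other cells are a mixture, with 564 neutrophil-like cells as the largest part, so a member called here need not differ from each cell type. Itgav was at 28.8 ± 19 CPM in T or NK cell-like and 26.9 ± 4.5 CPM in DC-like cells, against 25.6 ± 3.08 CPM in macrophages. UMIs were summed per mouse and class and tested with the edgeR quasi-likelihood test, with adjusted p over 10061 genes. Of those genes, 26% were higher in macrophages and 52.8% differed in either direction, so a call here was common.

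Mertk was at 23.9 ± 4.81 CPM in macrophages and 0.774, 2.81 and 0.71 CPM in other cells, a log2 fold change of 4.41 (SE 0.35, adjusted p = 1.41e-06). Itgb5 was at 238 ± 18.7 and 12.6 ± 2.77 CPM, a log2 fold change of 4.32 (SE 0.14, adjusted p = 2.22e-09). Axl was at 150 ± 2.97 and 15.9 ± 4.23 CPM, a log2 fold change of 3.31 (SE 0.15, adjusted p = 1.61e-08). These are differences of 21.2-fold, 20-fold and 9.93-fold. Pros1 was at 58.5 ± 2.02 and 10.6 ± 2.22 CPM, a log2 fold change of 2.47 (SE 0.17, adjusted p = 4.1e-07). Mfge8 and Itgav were 2.21-fold and 2.04-fold higher, with log2 fold changes of 1.14 (SE 0.25, adjusted p = 0.0024) and 1.03 (SE 0.17, adjusted p = 0.000316). Elmo1 differed least, at 59.2, 50 and 56 CPM against 35.2, 43.3 and 41.9 CPM, a log2 fold change of 0.47 (SE 0.14, adjusted p = 0.0151). Its call was lost without male mouse 1 (adjusted p = 0.141), with DESeq2 (0.0662) and in female mice (0.396), where macrophages held 49.2 ± 4.5 CPM and other cells 47.4 ± 4.43 CPM.

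At resolution 0.8, the other cells hold 28 cells of 1 small cluster led by Dcn, Apod and Lum, in which all 5 fibroblast and all 5 glial markers were raised. Pooled over mice, that cluster was at 121 CPM of Pros1 (82 to 171), 97.4 CPM of Axl (63 to 144), 70.1 CPM of Itgav (41.5 to 111) and 46.7 CPM of Mfge8 (24.2 to 81.6). Without cells with 2 or more stromal or glial UMIs, all 7 members were still called higher in macrophages.

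The second question was how the members differed between the macrophage classes. These are set by Fcrls and Ccr2 UMIs and are not the CD163+ and CD163− clusters of the study. Over the 3 male mice, Ccr2-only cells were 11 ± 1.95% and double-positive cells 38.5 ± 3.43% of macrophages. In the main fit, which leaves out the pairing by mouse, Axl was lower in Fcrls-only than in Ccr2-only macrophages and no other member passed. With the mouse as a block, Mertk was called as well. Fcrls-only macrophages held 115, 156 and 136 CPM of Axl in mice 1, 2 and 3, and Ccr2-only macrophages 243, 152 and 210 CPM. Mice 1 and 3 were thus lower in Fcrls-only cells and mouse 2 was about level, and the ranges of the classes overlapped. The log2 fold change was −0.63 (SE 0.16, adjusted p = 0.0199), or 1.55-fold lower. Of 6276 genes tested, 8.95% were called in this comparison and 5.16% in this direction. That is 562 genes, and 300, 331 and 331 were called without mouse 1, 2 or 3. The Axl call did not hold without mouse 1 (adjusted p = 0.252) or mouse 3 (0.236), with library totals as the sole scaling (0.0636) or with classes set after thinning to 2000 UMIs (0.372), and the log2 fold change was −0.34 in the last.

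Mertk went the other way in all 3 mice, at 26.3, 32.1 and 36.6 CPM in Fcrls-only and 15.9, 5.63 and 15.1 CPM in Ccr2-only macrophages, ranges that lay apart. The log2 fold change was 1.29 (SE 0.40, adjusted p = 0.0561), with an interval of 0.50 to 2.08, and the Ccr2-only level rested on 16 UMIs. With the mouse as a block, Mertk was called (log2 fold change 1.34, adjusted p = 0.014). The block raised the number of genes called from 562 to 831 of 6276. Mertk was also called with all 6 mice (adjusted p = 0.0135), with no filter on low counts (0.00751) and with library totals alone (0.0443). In these settings 868 of 6049, 723 of 15462 and 568 of 6276 genes were called.

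For the other members the intervals of the log2 fold change included 0. They were −0.27 to 0.43 for Pros1, −0.83 to 0.61 for Mfge8, −0.70 to 0.43 for Itgav, −0.38 to 0.26 for Itgb5 and −0.56 to 0.29 for Elmo1, with adjusted p from 0.814 to 0.96. All intervals of log2 fold changes given here were built from an SE derived from the F statistic, with the width of a normal distribution. With few mice, all of them can be too narrow. For Pros1 and Itgav the p-value was also larger than that SE gives, which adds to this. Itgb5, with 1422 and 298 UMIs in the 2 classes, was at 234 ± 10.9 CPM in Fcrls-only and 228 ± 61.3 CPM in Ccr2-only macrophages. Pros1 was at 61 ± 4.11 and 50.7 ± 7.35 CPM, with ranges that lay apart on this scale, which has no scaling for composition. Library totals alone moved the median log2 fold change of all genes from 0.02 to 0.13 and the share of calls that were higher in Fcrls-only cells from 42.3% to 58.8%. The direction of Mfge8 and Itgb5, −0.11 and −0.06, flipped under that scaling, and those of Mertk, Axl, Pros1, Itgav and Elmo1 were kept.

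**Figure D2:**
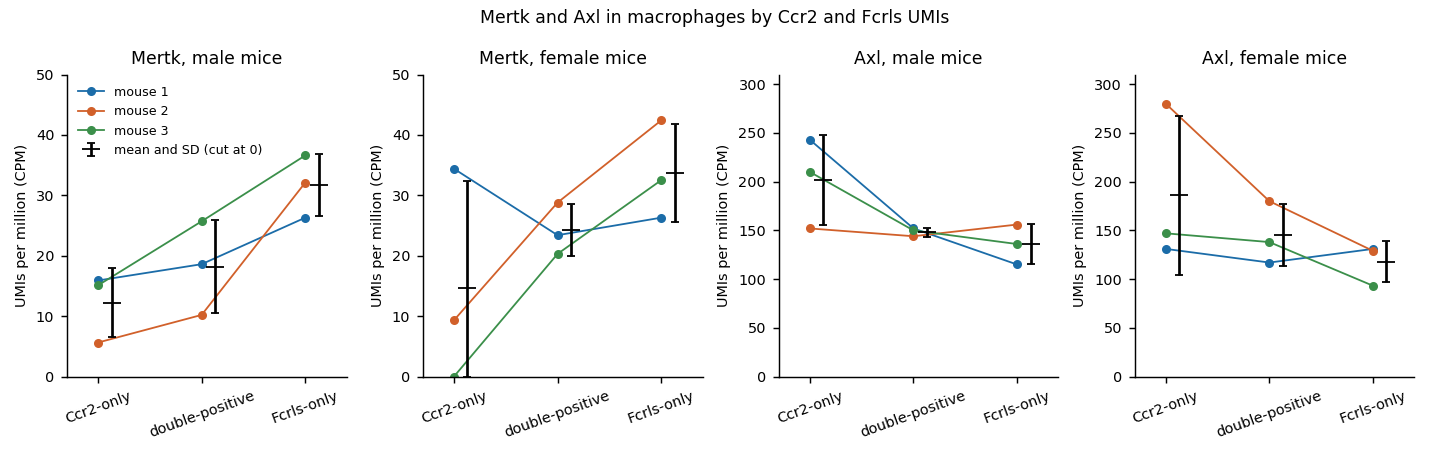
Mertk and Axl (CPM, vertical axis) in Ccr2-only, double-positive and Fcrls-only macrophages; each coloured line is 1 mouse and black bars are the mean and SD. In male mice Mertk is highest in Fcrls-only cells of each mouse, and Axl is highest in Ccr2-only cells of mice 1 and 3.

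Markers of other cell types were counted in both classes. Neutrophil markers were at 0.0943 to 0.352% of UMIs in Fcrls-only and 0.0846 to 0.1% in Ccr2-only cells, with all 9 present. Monocyte markers, which include Ccr2, were at 0.00135 to 0.00273% (6 of 7 present, Ccr2 at 0 by definition) and 0.0661 to 0.0805% (6 of 7, Vcan at 0). Every Ccr2-only cell holds Ccr2 by definition, at 603, 619 and 493 CPM in mice 1, 2 and 3, so the class rule sets most of this difference but not all. Mean shares of monocyte markers were 0.0709% in Ccr2-only and 0.00214% in Fcrls-only cells, and mean Ccr2 was 572 CPM in Ccr2-only cells. By these means the other monocyte markers were also higher in Ccr2-only cells, which was not tested. DC markers were at 0.00324 to 0.00555% (6 of 7, Clec9a at 0) and 0.0037 to 0.00619% (6 of 7, Itgae at 0), and fibroblast markers at 0.00555 to 0.0158% (5 of 5) and 0.00317 to 0.00563% (3 of 5, Col1a1 and Pdgfra at 0). Their part in the Axl and Mertk results was not tested.

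The mean levels of both receptors in double-positive macrophages lay between those of the single classes. Against Fcrls-only cells, Mertk had a log2 fold change of −0.71 (SE 0.25, adjusted p = 0.225) and was lower in 3 of 3 mice. With the mouse as a block it was called lower (−0.72, adjusted p = 0.0292), and the number of genes called went from 89 to 451. Against Ccr2-only cells, Axl had a log2 fold change of −0.47 (SE 0.16, adjusted p = 0.276) and was lower in 3 of 3 mice. The block raised the number of genes called in that comparison from 54 to 229, and Axl was not among them. Of the 6276 genes, 1.42% and 0.86% were called in these comparisons, and of the 7 members none without the block. The 89 genes called against Fcrls-only cells fell to 17 without mouse 1 and 50 without mouse 2, and the 54 called against Ccr2-only cells to 24 without mouse 1 and 9 without mouse 3. The 3 comparisons share sums, so their values are not independent of each other.

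The same classes in 3 female mice gave no called member, where 5.5% of 5650 genes, 311 in all, were called. Without female mouse 1, 2 or 3, 149, 177 and 177 genes were called. Mertk was at 26.3, 42.4 and 32.5 CPM in Fcrls-only and 34.4, 9.32 and 0 CPM in Ccr2-only macrophages, higher in Fcrls-only cells of mice 2 and 3 and lower in mouse 1. The Ccr2-only values rested on 6 UMIs, and the log2 fold change was 1.03 (SE 0.61, adjusted p = 0.451). Axl was at 131, 129 and 93.2 CPM in Fcrls-only and 131, 280 and 147 CPM in Ccr2-only macrophages, with a log2 fold change of −0.66 (SE 0.27, adjusted p = 0.203). Mouse 1 was about level and mice 2 and 3 were higher in Ccr2-only cells. Elmo1 had a log2 fold change of −0.62 (SE 0.36, adjusted p = 0.443), with Ccr2-only values spread from 20.7 to 140 CPM. Tested as an interaction, the Fcrls-only to Ccr2-only difference was not called as unlike between the sexes for any member. The female minus male difference in log2 fold change was −0.22 (SE 0.83) for Mertk and 0.01 (SE 0.32) for Axl. Of 6781 genes tested for this interaction with edgeR 0 were called, with 303 at an unadjusted p under 0.05.

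Female and male macrophages as a whole were compared next. No member was called, and 0.0863% of 8114 genes, 7 in all, were. Without male mouse 2 the count was 67 genes. Itgb5 was at 193, 222 and 194 CPM in female and 227, 227 and 259 CPM in male mice, ranges that lay apart, with a log2 fold change of −0.22 (SE 0.10, adjusted p = 0.89). Mertk was at 28.9 ± 3.76 and 23.9 ± 4.81 CPM and Axl at 134 ± 26.4 and 150 ± 2.97 CPM in female and male mice, and the ranges overlapped. The intervals of the log2 fold change were −0.12 to 0.59 for Mertk and −0.40 to 0.10 for Axl.

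The last comparison set the 10% of macrophages with the largest share of UMIs in 8 interferon-regulated genes (Isg15, Ifit1, Ifit2, Ifit3, Irf7, Ifi44, Rsad2 and Usp18) against the rest in each mouse. This class is a range of a score and not a cell type: in mouse 2 the last cell inside had 0.0666% and the first outside 0.0662% of UMIs in these genes. Axl was at 180, 192 and 207 CPM in the 18, 52 and 78 interferon-high cells of mice 1, 2 and 3 and at 143, 149 and 144 CPM in the rest. It was higher in 3 of 3 mice with ranges that lay apart, and the log2 fold change was 0.48 (SE 0.14, adjusted p = 0.155). Under alternatives, the log2 fold change of Axl ran from 0.12 to 0.57, with adjusted p from 0.0636 to 0.935. Mertk was at 20, 37.8 and 38.9 CPM and 21.9, 18.8 and 28.5 CPM, higher in 2 of 3 mice, with a log2 fold change of 0.66 (SE 0.28, adjusted p = 0.487). No member was called, and 2.12% of 7031 genes, 149 in all, were. Without mouse 3 the count was 44 genes. In the cluster of 93 cells led by Ifit3, Rsad2 and Ifit2, Axl was at 211 CPM (exact Poisson interval 181 to 245) and Mertk at 41.7 CPM (28.9 to 58.3). These counts were pooled over mice, and the intervals do not cover the spread between mice.

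**Figure D3:**
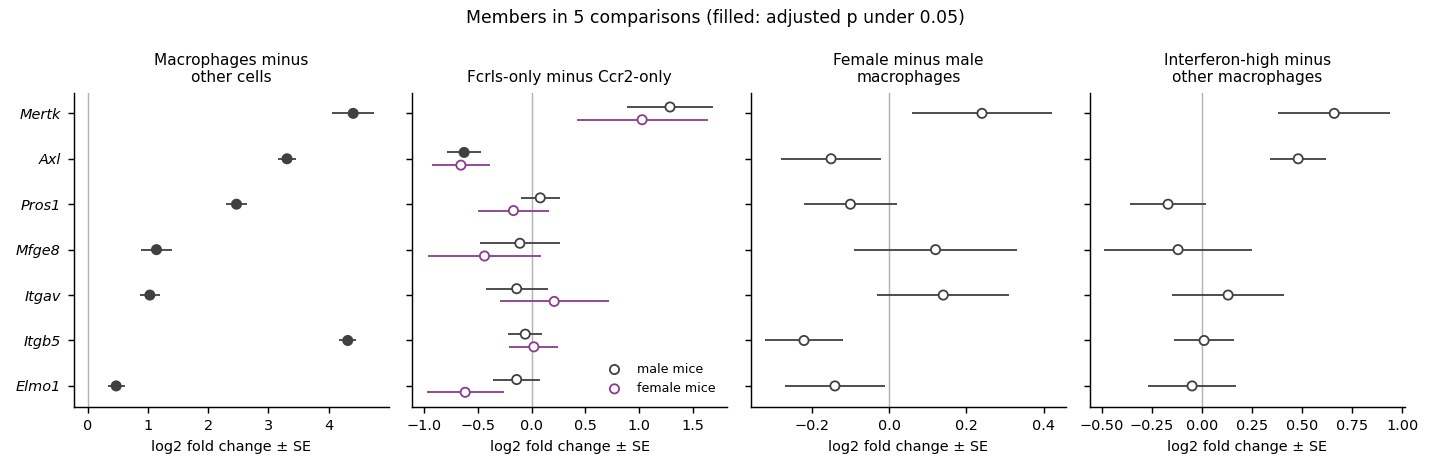
Log2 fold change ± SE (horizontal axes, which differ in range) of the 7 members in 5 comparisons; filled points have an adjusted p under 0.05 and purple points are female mice. All 7 members are called in macrophages against other cells, and Axl is the one member called between Fcrls-only and Ccr2-only cells in the main fit, which has no block for the mouse.

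Of 52 other efferocytosis genes, grouped by role, 42 could be tested between macrophages and other cells. Of these, 20 were higher and 10 lower in macrophages, with a median log2 fold change of 0.38 against 0.01 over all genes. Of all genes tested, 26% were higher and 26.8% lower in macrophages. Lysosomal digestion and lipid sensing had 8 of 11 genes higher and none lower, and the sensing of find-me signals 3 of 4 higher and none lower. The latter include Cx3cr1, which is also on the list of macrophage markers used here. Bridging genes had 2 of 5 higher and 3 lower, receptors 4 of 8 higher and 2 lower, engulfment genes 1 of 8 higher and 2 lower, and don't-eat-me genes 1 of 4 higher and 3 lower.

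Between Fcrls-only and Ccr2-only macrophages, 34 of the 52 could be tested, with 5 higher and 6 lower in Fcrls-only cells, against 3.79% and 5.16% of all genes. The median was 0.04 against 0.02 over all genes. Bridging genes moved in both directions. Gas6, the shared ligand of Mertk and Axl, was at 494, 441 and 498 CPM in Fcrls-only and 159, 92.8 and 144 CPM in Ccr2-only macrophages, a log2 fold change of 1.77 (SE 0.16, adjusted p = 1.94e-06). Lgals3, which encodes galectin-3, was at 33.6, 16.6 and 30.6 CPM and 68.8, 115 and 108 CPM, a log2 fold change of −2.08 (SE 0.24, adjusted p = 2.74e-05). The phosphatidylserine-binding annexins Anxa1 and Anxa5 were also lower, at −0.96 (SE 0.22, adjusted p = 0.00928) and −0.53 (SE 0.12, adjusted p = 0.00921), though both calls were lost without mouse 2 or mouse 3, with adjusted p up to 0.102 for Anxa1 and 0.128 for Anxa5. Anxa1 was not lower in mouse 1, at 55.5 CPM in Fcrls-only against 52.9 CPM in Ccr2-only cells.

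Among receptors, Stab1, the phosphatidylserine receptor stabilin-1, was at 485 ± 66.4 and 134 ± 52.8 CPM, a log2 fold change of 1.76 (SE 0.21, adjusted p = 3.2e-05). Havcr2, which encodes TIM-3, was at 13.6 ± 4.39 and 40.3 ± 13 CPM, a log2 fold change of −1.66 (SE 0.30, adjusted p = 0.00181), and its call was lost with thinned classes (adjusted p = 0.201). Of the genes that sense find-me signals, S1pr1, a receptor of sphingosine-1-phosphate, was at 71.6, 63.2 and 48.3 CPM in Fcrls-only and 15.9, 5.63 and 12.3 CPM in Ccr2-only cells, a log2 fold change of 2.31 (SE 0.34, adjusted p = 0.000274). Gpr132, a receptor of lysophospholipid signals, was lower at −1.13 (SE 0.24, adjusted p = 0.00476), and its call was lost without mouse 1 or mouse 3 (adjusted p up to 0.138).

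Of the genes of digestion and lipid sensing, the cholesterol exporter Abca1 was higher in Fcrls-only cells, at 202 ± 26 against 76 ± 5.29 CPM, a log2 fold change of 1.34 (SE 0.20, adjusted p = 0.000296). Lipa, the lysosomal acid lipase, was higher by 0.62 (SE 0.17, adjusted p = 0.0339), a call lost without each of the 3 mice in turn, with thinned classes, with DESeq2 and at a C1q gate of 1% (adjusted p up to 0.22). The nuclear receptor Pparg was lower, at 5.85, 4.66 and 2.1 CPM against 26.4, 25.3 and 11 CPM, a log2 fold change of −2.45 (SE 0.60, adjusted p = 0.014), and its call was lost without mouse 1 or mouse 2 and at a C1q gate of 1% (adjusted p up to 0.117). In female mice S1pr1, Lgals3, Gas6, Stab1, Abca1, Gpr132 and Anxa1 were called in the same direction, with adjusted p from 2.32e-06 to 0.0337. Havcr2 (adjusted p = 0.099), Anxa5 (0.222) and Lipa (0.338) were not called in female mice, with log2 fold changes of −1.79, −0.42 and 0.58, and Pparg could not be tested. None of the 7 engulfment, 3 don't-eat-me and 2 shedding genes tested was called in male mice.

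**Figure D4:**
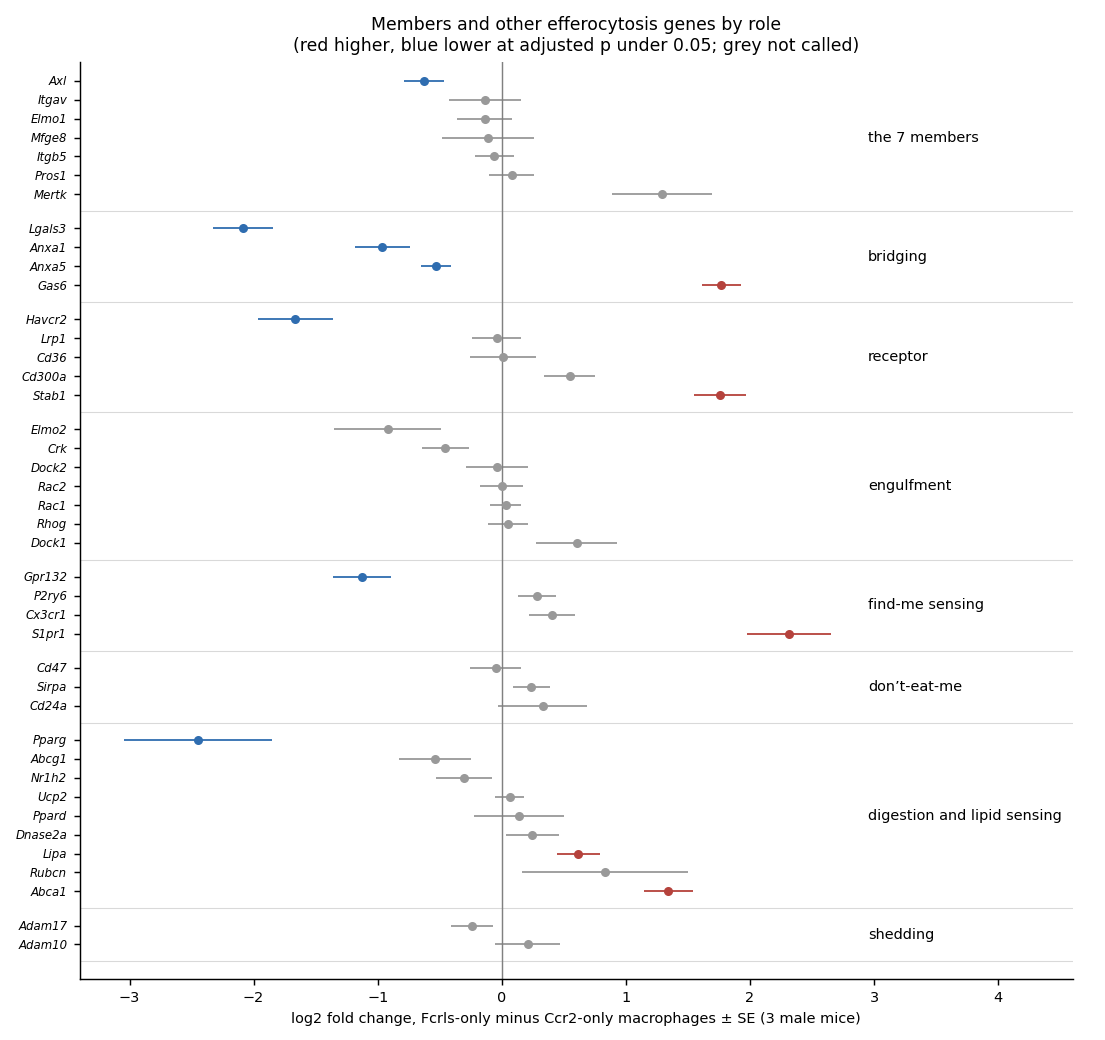
Log2 fold change ± SE (horizontal axis) of the 7 members and 34 other efferocytosis genes between Fcrls-only and Ccr2-only macrophages of 3 male mice, by role; red genes are higher and blue genes lower at an adjusted p under 0.05. Gas6, Stab1, S1pr1, Abca1 and Lipa are red, and Lgals3, Havcr2, Pparg, Gpr132, Anxa1, Anxa5 and the member Axl are blue. Mertk is not called in this fit.

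The genes most like each member were taken by Pearson correlation of log2(mean CPM + 10) over the 9 classes, among 7691 genes. Mertk was most like Slc15a2 (r = 0.995), Cp (0.992) and Ppp1r9a (0.990). Axl was most like Smpdl3b (0.993), Dhrs3 (0.990) and Adap2 (0.985), and Pros1 like Rcn3 (0.989), Aif1 (0.989) and Pltp (0.987). Itgb5 was most like Trem2 (0.997) and Apoe (0.992). For Mfge8 the leading genes were Kifap3 (0.977), Acot13 (0.973) and Svbp (0.966), for Itgav Pianp (0.976), Cltb (0.976) and Fam220a (0.969), and for Elmo1 Trrap (0.940), Jade2 (0.930) and Ccnd2 (0.930). These are descriptions over classes that share 1 lane and include 4 of macrophages.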

How the data were processed

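Raw counts of UMIs were deposited by the authors in 2 matrices from 1 lane of the 10x Genomics Single Cell 3′ v3 system: 2668 cells by 16819 genes, and 4395 barcodes with 31053 genes and 6 hashtags. Per the file headers and labels, these counts came from Cell Ranger 3.1.0 and mm10. The submitters' processing notes name Seurat. Cells with more than 200 and fewer than 5000 genes and a mitochondrial share below 5% were kept, as in the study, and HTODemux (Seurat 5.3.0, default settings) was run on the larger matrix. This left 3741 cells with 1 hashtag, and 370 filtered barcodes were negative or doublets by hashtag. The 2668 cells with a male hashtag were the deposited cells, with 0 differing entries. The deposited key gives the sex of each hashtag, and each hashtag was taken as 1 mouse.

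Depth was 4239463, 5656097 and 13508078 UMIs in male mice 1 to 3 and 7965133 UMIs over the 1073 female cells. The 2668 cells, macrophages included, were clustered with Seurat (15 components, Louvain resolution 0.5), and clusters were named from fixed markers where at least 3 were raised. Scrublet, run after hashtag doublets were removed, marked 10 of 3741 cells (0.267%), below the 4% it was set to expect. Whether it missed doublets was not tested. The 4% with the highest scores were left out as an alternative chosen after seeing the data. Library totals alone, all 6 mice and cells with no proliferation UMI were also alternatives added then.

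UMIs were summed per mouse and class and tested with edgeR 4.0.16 (TMM factors, filterByExpr, quasi-likelihood, Benjamini-Hochberg adjustment over all genes tested, called under 0.05). DESeq2 1.42.0 was an alternative. The code was tested on simulated data. The study gives no block for the mouse, and the main fit had none, so it leaves out the pairing of classes within a mouse. The block was an alternative. Since 1 mouse gives a sum to each class, its number pairs them: deviations of same-numbered sums correlated at 0.025, 0.085 and 0.192 in male mice 1, 2 and 3 for Fcrls-only and Ccr2-only macrophages, at 0.097, 0.365 and 0.411 for double-positive and Fcrls-only, and at 0.076, 0.011 and −0.031 in female mice. P-values measure the spread between 3 mice of 1 lane. All 7 members were tested in the main fit of every comparison, and values are not given for each of them in each. Of 52 other pathway genes, up to 12 called between Fcrls-only and Ccr2-only cells, by size of the fold change, are named, and the 3 genes most like each member, of which 1 is not reported here. Members and lists were chosen with earlier results of these data known. The effect of alternatives is given with the closing observations.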

Additional observations from a re-analysis of the deposited data

How the results depend on the processing

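The number of members called stayed at 7 between macrophages and other cells, except 6 without male mouse 1, with DESeq2 and in female mice, each through Elmo1. Between Fcrls-only and Ccr2-only macrophages it was 1, and 2 with no filter on low counts, with the mouse as replicate block and with all 6 mice (Axl and Mertk), 0 with classes set after thinning, and 0 to 1 when each mouse was left out. Library totals alone exchanged Axl for Mertk. Between double-positive and Fcrls-only cells it was 0, and 1 with the replicate block. In female mice it was 0, and 1 where a positive class needed 2 or more UMIs (Mertk 3.23, adjusted p = 0.0351). In that setting 272 of 4336 genes were called. Its Ccr2-only cells are a part of those that held 6 Mertk UMIs in the main setting, so the value rests on very few counts. The block changed no other call. In the other comparisons no alternative called a member. Among macrophages and the named classes of other cells, the number of members highest in macrophages was 5, and 4 to 6 over alternatives. The unassigned cells were left out of this count. The cause of these changes was not tested.

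Of 565 fold changes of members under alternatives that keep all mice, 514 kept their direction and side of the threshold, 4 lost it, 6 gained it and 41 turned, none of them called. At a C1q gate of 1%: Pros1 −0.13 (Fcrls-only against Ccr2-only), Pros1 −0.06, Itgav −0.05 and Itgb5 −0.03 (double-positive against Ccr2-only), Mfge8 0.07, Itgb5 −0.0094 and Elmo1 0.08 (interferon-high against other). With classes set after thinning to 2000 UMIs: Pros1 −0.29 (Fcrls-only against Ccr2-only), Elmo1 −0.05 (double-positive against Fcrls-only), Mfge8 −0.40 and Itgav −0.11 (double-positive against Ccr2-only), Pros1 0.11 and Elmo1 0.30 (female Fcrls-only against Ccr2-only). With all 6 mice: Pros1 −0.009 (Fcrls-only against Ccr2-only). With library totals alone: Mfge8 0.0045 and Itgb5 0.05 (Fcrls-only against Ccr2-only), Pros1 −0.01 and Elmo1 −0.03 (double-positive against Fcrls-only), Itgb5 −0.04 (interferon-high against other). Without cells with 2 or more stromal or glial UMIs: Itgav 0.13 (Fcrls-only against Ccr2-only), Pros1 −0.08 (double-positive against Fcrls-only), Itgb5 −0.0013 (double-positive against Ccr2-only), Itgav −0.10 (female Fcrls-only against Ccr2-only). With no filter on low counts: Itgb5 0.0035 (Fcrls-only against Ccr2-only), Itgb5 −0.06 (interferon-high against other). With DESeq2-type size factors: Itgav −0.0019 (double-positive against Ccr2-only). Without cells marked by Scrublet: Itgav −0.01 (double-positive against Ccr2-only). With 2 or more UMIs for a positive class: Itgav −0.09 (double-positive against Ccr2-only), Itgav −0.06 (female Fcrls-only against Ccr2-only). At a C1q gate of 0.25%: Itgav −0.15 (female Fcrls-only against Ccr2-only). With the top 20% as interferon-high: Pros1 0.02, Mfge8 0.04, Itgav −0.30 and Itgb5 −0.05 (interferon-high against other). Without the 4% of cells with the highest Scrublet score: Mfge8 0.003 and Itgb5 −0.04 (interferon-high against other). In female mice: Itgav −0.82, Itgb5 −0.04 and Elmo1 0.16 (interferon-high against other). With the mouse as replicate block: Itgb5 −0.00037 (interferon-high against other). Without cells with proliferation UMIs: Itgb5 −0.03 (interferon-high against other). Leaving out 1 mouse turned others, none of them called. In Fcrls-only against Ccr2-only these were Pros1 −0.03 to 0.20, Mfge8 −0.42 to 0.13, Itgav −0.51 to 0.20, Itgb5 −0.26 to 0.08 and Elmo1 −0.31 to 0.06. In double-positive against Fcrls-only these were Pros1 −0.03 to 0.08, Itgav −0.08 to 0.45 and Elmo1 −0.05 to 0.11. In double-positive against Ccr2-only these were Mfge8 −0.11 to 0.37, Itgav −0.06 to 0.11, Itgb5 −0.18 to 0.18 and Elmo1 −0.25 to 0.07. In female Fcrls-only against Ccr2-only these were Pros1 −0.34 to 0.23, Itgav −0.11 to 0.48 and Itgb5 −0.26 to 0.32. In female against male these were Mfge8 −0.05 to 0.21. In interferon-high against other these were Mfge8 −0.58 to 0.15, Itgav −0.32 to 0.34, Itgb5 −0.14 to 0.13 and Elmo1 −0.46 to 0.15. Mertk, Mfge8 and Itgav were too low to be tested in female mice with thinned classes, and DESeq2 gave them no adjusted p in female mice and between double-positive and Fcrls-only cells.

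Counts of all genes called moved by over 1.5 times in places: for Fcrls-only against Ccr2-only cells from 562 to 308 with thinned classes and 868 with all 6 mice, beside the changes without 1 mouse given with each result. Double-positive against Fcrls-only went from 89 to 9 with thinned classes and 246 with no filter, and against Ccr2-only from 54 to 8 and 164. Female against male went from 7 to 103 with no filter. Interferon-high against other went from 149 to 303 with no filter, 99 with the top 20% and 52 in female mice. At resolution 0.8 a cluster that held cells past and below the C1q gate took the name monocyte, and the level of Axl in monocyte-like cells went from 19.3 to 45.2 CPM and in DC-like cells from 36 to 4.08 CPM, and of Pros1 from 13.4 to 31.9 and from 30.7 to 7.43 CPM. Depth limits the smallest classes most: 3 counts are 6.96 CPM in macrophages with neither UMI, 6.79 in B cell-like, 4.89 in T or NK cell-like and 2.35 in Ccr2-only cells.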
